A study of Mus musculus with 6 samples.

Results

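The matrix metalloproteases (Mmp), the ADAM proteases (Adam), the ADAMTS proteases (Adamts) and the tissue inhibitors of metalloproteases (Timp) were examined in NIH/3T3 cells with and without Mki67, which encodes the proliferation marker Ki-67. Members were taken by name alone: every protein-coding gene whose symbol is Mmp, Adam, Adamts or Timp followed by a number, with the ADAMTS-like genes left out. The rule found 78 genes among 54146 annotated ones, made up of 22 Mmp, 33 Adam, 19 Adamts and 4 Timp genes. NIH/3T3 is an established line of mouse embryonic fibroblasts from the Swiss albino strain. The 3 groups were KO clone 1 (genotype Mki67-/-), KO clone 2 (genotype Mki67-/-) and WT (wild type), each with 2 RNA-seq libraries of ribosomal RNA-depleted total RNA from cells in serum-supplemented medium. Each knockout group is a single clone, and the method used to make them is not stated in the labels. Both clone comparisons use the same WT libraries. Whether the 2 libraries of a group are separate cultures is not stated, so every p-value rests on a spread between libraries that may be only technical.

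These enzymes use a zinc ion to cut proteins at or outside the cell surface. Secreted and membrane-anchored MMPs cut collagens, gelatin and other matrix proteins, ADAMs release the outer parts of membrane proteins such as growth factor precursors and Notch receptors, and ADAMTS enzymes trim procollagens, proteoglycans and fibrillin-rich matrix. TIMPs are small secreted proteins that block the active site, and Timp2 also bridges pro-Mmp2 to Mmp14 at the cell surface, where Mmp14 activates it.

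Libraries held 15087148 to 19678782 reads assigned to genes in the knockout clones, against 3873249 and 11377172 in WT, so WT replicate 1 was the shallowest. Mki67 stood at 4.24 and 4.59 CPM in KO clone 1, 4.32 and 7.70 CPM in KO clone 2, and 49.2 and 55.2 CPM in WT, where CPM is a gene's count scaled to a common number of assigned reads per library. It was lower in the mean of the clones by a log2 fold change of -3.35 ± 0.18 (SE; adjusted p = 1.13e-08, edgeR's quasi-likelihood test). The 5 fibroblast markers checked summed to 5523 to 6446 CPM in knockout libraries and 7213 to 8171 CPM in WT libraries. Most of that sum is Vim, and the markers moved both ways in the mean of the clones, with Col1a1 higher (log2 fold change 0.75, adjusted p = 8.19e-04), Vim (-0.60, adjusted p = 0.00302) and Thy1 (-1.03, adjusted p = 5.74e-06, edgeR) lower, and Col1a2 and Pdgfrb not called. Epithelial markers summed to at most 1.16 CPM in any library, with Epcam at 0 counts in all 6; they were checked because 1 protocol text of the labels names 4T1, a mammary tumour line, where every other label says NIH/3T3. Leukocyte markers summed to 17.4 to 22.6 CPM in knockout libraries and 4.06 to 5.71 CPM in WT libraries, nearly all from Csf1r, while Adgre1 was at 0 in all libraries and Ptprc reached at most 0.361 CPM. Endothelial markers summed to 1.26 to 1.73 CPM in knockout libraries and 4.08 to 4.51 CPM in WT libraries, with Kdr at 0 throughout. The part of either marker difference in the results was not tested.

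Of the 78 members, 29 passed the filter on low counts and 49 did not. Those measured were Mmp2, Mmp9, Mmp11, Mmp14, Mmp16, Mmp19 and Mmp28 among the MMPs, Adam8, Adam9, Adam10, Adam11, Adam12, Adam15, Adam17, Adam19, Adam22 and Adam23 among the ADAMs, Adamts1, Adamts2, Adamts4, Adamts5, Adamts6, Adamts7, Adamts10, Adamts12 and Adamts14 among the ADAMTS genes, and Timp1, Timp2 and Timp3 among the inhibitors. The 49 others comprised 27 genes with no count in any library and 22 with a few, of which Adam1a had the most at 43 counts over all 6 libraries. Adam2, Adam3, Adam18, Adam24 and Adam26a, ADAMs known from sperm in mice, were among the genes without a count. Other ADAMs that did not pass had some, such as Adam21 with 12, Adam5 with 7, Adam32 with 2 and Adam1b with 1. Timp4 had 6 counts in all.

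A block of MMP genes on chromosome 9 stood at or near 0 counts at this depth. It holds 9 members, Mmp13, Mmp12, Mmp1b, Mmp3, Mmp10, Mmp8, Mmp27, Mmp20 and Mmp7, within 427.1 kb (GRCm38, chr9:7272514-7699585), among them the collagenases and stromelysins that fibroblasts can induce. No count was recorded for 6 of the 9 in any library, and no member of the block had more than 2 counts over all 6. Windows of 300 bases around gene starts, 250 before and 50 after, were available from RefSeq (GRCm38.p6) for 48 of the 78 members, as 53 windows. Of the 11 windows of the block, 8 (72.7%) held TATAAA, 7 (63.6%) held TGANTCA, the letters that AP-1 factors are known to bind, and 0 held GGGCGG, the GC box, with each motif read on both strands. Over all 32851 windows of the table, TATAAA was in 13.6%, TGANTCA in 7.81% and GGGCGG in 35.7%. The same 7 windows of the block held both TATAAA and TGANTCA. Windows of the stromelysin genes Mmp3 and Mmp10 and of the collagenase gene Mmp13 are shown as examples of this pairing, at chr9:7445572-7445871, chr9:7502092-7502391 and chr9:7272264-7272563 on the plus strand, with both motifs in capitals.
Mmp3: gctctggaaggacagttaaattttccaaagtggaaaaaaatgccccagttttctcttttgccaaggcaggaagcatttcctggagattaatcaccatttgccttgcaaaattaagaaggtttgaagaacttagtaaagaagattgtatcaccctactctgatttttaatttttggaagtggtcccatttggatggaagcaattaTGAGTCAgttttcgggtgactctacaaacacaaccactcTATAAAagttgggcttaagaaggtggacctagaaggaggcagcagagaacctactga
Mmp10: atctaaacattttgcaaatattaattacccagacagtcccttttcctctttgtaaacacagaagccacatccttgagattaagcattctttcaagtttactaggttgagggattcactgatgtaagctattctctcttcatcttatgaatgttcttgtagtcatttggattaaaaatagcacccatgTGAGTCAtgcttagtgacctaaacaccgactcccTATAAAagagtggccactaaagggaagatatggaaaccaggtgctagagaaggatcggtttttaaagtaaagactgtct
Mmp13: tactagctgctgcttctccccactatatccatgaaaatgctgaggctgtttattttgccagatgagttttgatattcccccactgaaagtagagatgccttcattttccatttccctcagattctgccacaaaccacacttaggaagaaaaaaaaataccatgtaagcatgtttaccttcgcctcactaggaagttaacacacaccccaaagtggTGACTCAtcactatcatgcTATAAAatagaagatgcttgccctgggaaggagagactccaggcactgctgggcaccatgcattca

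Most windows of the measured members held the GC box. Of their 19 windows, from 17 genes, 14 (73.7%) held GGGCGG, 1 held TATAAA (Adamts1) and 1 held TGANTCA (Adam19), while the 23 windows of the other members that did not pass held GGGCGG in 39.1% and each of the others in 17.4% of cases. The median number of CpG dinucleotides per window was 19 for measured members and 1 for the chromosome 9 block, against 7 over all windows. The windows of Timp2 (chr11:118355362-118355661, minus strand), Timp3 (chr10:86300162-86300461, plus strand) and Mmp14 (chr14:54431348-54431647, plus strand) are shown as examples of windows with the GC box among genes called higher in the mean of the clones, with GGGCGG or its reverse complement CCGCCC in capitals. Of the 7 such genes with a window, 5 held it and Adam22 and Adamts12 did not. None of the members called lower had a window, so the box cannot be set against the direction of change. A match of letters is a description and not a bound site.
Timp2: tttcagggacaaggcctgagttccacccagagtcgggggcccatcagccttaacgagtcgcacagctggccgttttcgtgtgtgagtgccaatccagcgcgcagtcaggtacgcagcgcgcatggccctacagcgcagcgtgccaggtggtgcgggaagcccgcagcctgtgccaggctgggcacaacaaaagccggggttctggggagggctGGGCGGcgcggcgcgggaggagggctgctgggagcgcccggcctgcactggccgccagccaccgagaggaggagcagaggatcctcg
Timp3: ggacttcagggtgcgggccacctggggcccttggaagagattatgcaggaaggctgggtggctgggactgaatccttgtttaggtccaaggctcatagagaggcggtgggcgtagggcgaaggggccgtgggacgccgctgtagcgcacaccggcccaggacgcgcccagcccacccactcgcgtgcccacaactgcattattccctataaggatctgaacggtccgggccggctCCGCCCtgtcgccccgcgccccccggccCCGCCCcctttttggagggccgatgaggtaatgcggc
Mmp14: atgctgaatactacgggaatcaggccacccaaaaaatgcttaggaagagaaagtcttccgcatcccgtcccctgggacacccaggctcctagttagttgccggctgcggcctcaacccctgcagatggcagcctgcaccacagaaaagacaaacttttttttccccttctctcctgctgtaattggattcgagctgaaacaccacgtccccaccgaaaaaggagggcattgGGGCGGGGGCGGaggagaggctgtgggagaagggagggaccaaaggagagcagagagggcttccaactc

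**Figure D1:**
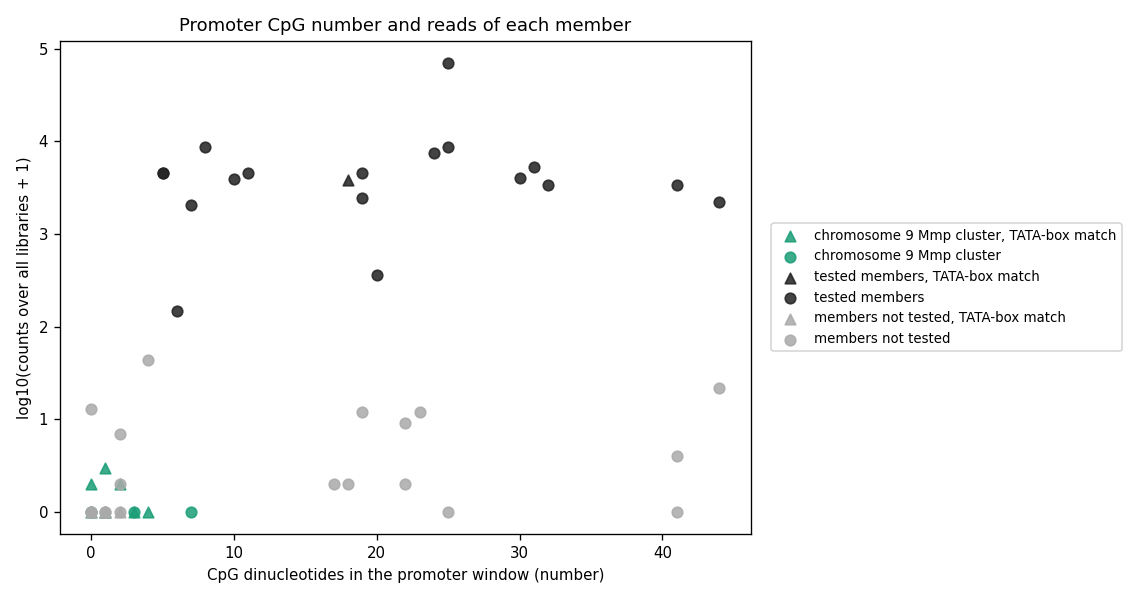
Each point is a 300-base window around a gene start, with its number of CpG dinucleotides (horizontal axis) and the gene's counts over all 6 libraries (vertical axis, log10 of counts + 1), for the chromosome 9 Mmp block, members that passed the low-count filter and other members; triangles mark windows with a TATA-box match. The block's windows hold 0 to 7 CpG and the measured members' windows hold 5 to 44.

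The protease and inhibitor genes of these cells changed in both directions in the knockout clones. In the mean of both clones, 16 of the 29 measured members passed an adjusted p of 0.05 in edgeR's quasi-likelihood test, 9 higher and 7 lower, where 34.8% of all 13120 genes tested passed (16.6% higher and 18.2% lower). Higher were Mmp14, Mmp16, Adam10, Adam17, Adam22, Adamts5, Adamts12, Timp2 and Timp3, and lower were Mmp2, Mmp9, Mmp19, Adam12, Adamts6, Adamts7 and Adamts10. The other 13 had log2 fold changes between -0.60 and 0.46. Members could pass the filter through the group in which they were high, so their share of calls is read as a description; the median log2 fold change was 0.17 over the 29 members and 0.00 over all genes tested. Because the libraries are bulk RNA, fewer cells of a kind and less RNA per cell cannot be told apart.

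**Figure D2:**
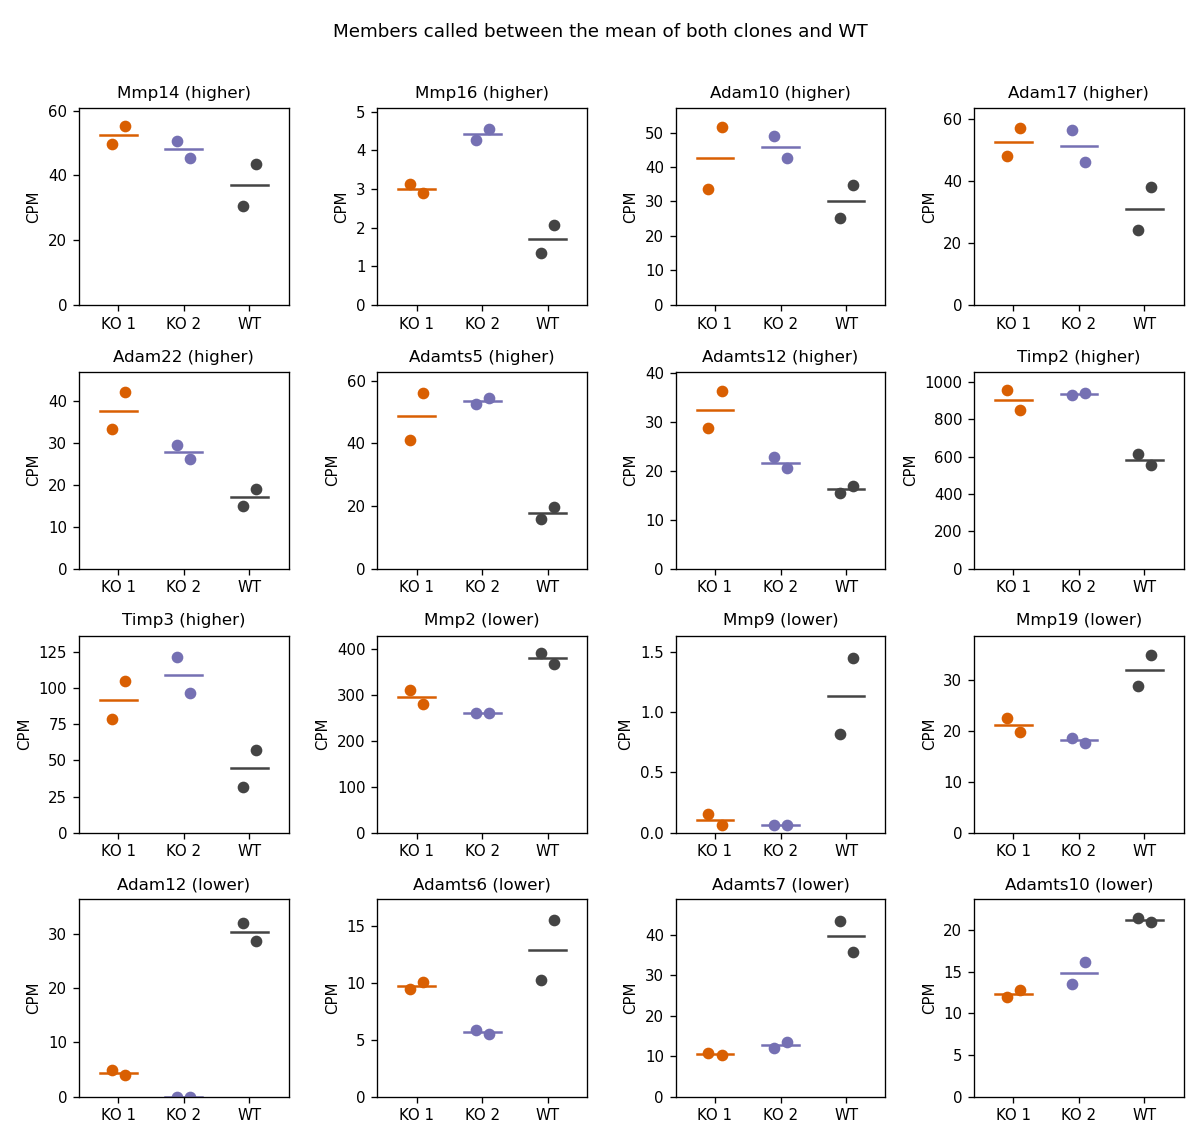
CPM (vertical axes) of the 16 members called in the mean of the clones, 1 panel a gene, with a point per library and a line at the mean of KO clone 1, KO clone 2 and WT from left to right. The first 9 panels are the higher genes and the last 7 the lower ones, and of these Adam10 alone has a knockout library inside the WT range.

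Among the inhibitors, Timp2 and Timp3 were higher in both clones and Timp1 did not pass the test. Timp2, the inhibitor that also takes part in Mmp2 activation, stood at 957 and 850 CPM in KO clone 1, 932 and 939 CPM in KO clone 2, and 613 and 555 CPM in WT. All 4 knockout libraries lay above both WT libraries, with a log2 fold change of 0.66 ± 0.12 (SE, adjusted p = 0.00102, edgeR) in the mean of the clones. Timp3, which binds to the matrix and inhibits Adam17 and the aggrecan-cutting ADAMTS enzymes as well as MMPs, had 78.7 and 105 CPM in KO clone 1, 122 and 96.7 CPM in KO clone 2, and 31.8 and 57.5 CPM in WT. The groups did not overlap, and the log2 fold change was 1.11 ± 0.20 (SE, adjusted p = 8.01e-04, edgeR). Timp1, a secreted inhibitor carried on the X chromosome, had 115 and 103 CPM in KO clone 1, 98.5 and 107 CPM in KO clone 2, and 121 and 98.8 CPM in WT. Its groups overlapped, with a log2 fold change of -0.04 ± 0.12 (SE, adjusted p = 0.806, edgeR). Timp1 lies within Syn1 and Timp3 within Syn3 on the opposite strand, which strand-aware counting separates, while Timp2 shares its strand with the overlapping gene Cep295nl.

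Among the MMPs, Mmp2, Mmp9 and Mmp19 were called lower and Mmp14 and Mmp16 higher in the mean of the clones. Mmp2, gelatinase A, stood at 311 and 282 CPM in KO clone 1, 260 and 261 CPM in KO clone 2, and 392 and 369 CPM in WT. All knockout libraries lay below both WT libraries, with a log2 fold change of -0.45 ± 0.11 (SE, adjusted p = 0.00494, edgeR), which was -0.26 once transcript GC content and length were adjusted for. Mmp9, gelatinase B, was near the limit of detection, with 4 counts in KO clone 1, 2 in KO clone 2 and 19 in WT over the 2 libraries of each group. It was 0.152 and 0.0629 CPM in KO clone 1, 0.0617 and 0.0652 CPM in KO clone 2, and 0.815 and 1.44 CPM in WT, so the WT libraries were the high ones despite being the shallowest. Both clones together were lower than WT by a factor of 14.4, with a 95% counting interval of 5.54 to 44.1. Mmp9 passed the low-count filter only through WT, the group in which it was high, so its call is a description. Mmp19, which cuts basement membrane proteins, had 22.7 and 19.8 CPM in KO clone 1, 18.6 and 17.7 CPM in KO clone 2, and 28.8 and 35.1 CPM in WT. Its log2 fold change was -0.72 ± 0.14 (SE, adjusted p = 0.00137, edgeR), without overlap between the groups.

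Mmp14 and Mmp16, which encode membrane-anchored MMPs, were higher in the mean of the clones, but each was called in 1 clone and not in the other. Mmp14 had an adjusted p of 0.0432 in KO clone 1 and 0.141 in KO clone 2, and Mmp16 0.105 in KO clone 1 and 0.00763 in KO clone 2 (edgeR). Mmp14, the activator of pro-Mmp2, had 49.8 and 55.1 CPM in KO clone 1, 50.6 and 45.5 CPM in KO clone 2, and 30.4 and 43.4 CPM in WT. All 4 knockout libraries were above both WT libraries, but KO clone 2 replicate 2 lay close to WT replicate 2, and the log2 fold change of 0.41 ± 0.15 (SE) had an adjusted p of 0.0451 in edgeR. That call ended without WT replicate 1 (log2 fold change 0.21, adjusted p = 0.339), without KO clone 1 replicate 2 (0.36, adjusted p = 0.103), without KO clone 2 replicate 1 (0.37, adjusted p = 0.128), without KO clone 2 replicate 2 (0.44, adjusted p = 0.0623) and under DESeq2 (adjusted p = 0.0525), and without WT replicate 2 the log2 fold change was 0.73. Mmp16, a membrane-type enzyme of the same subfamily, had 3.13 and 2.89 CPM in KO clone 1, 4.26 and 4.57 CPM in KO clone 2, and 1.36 and 2.08 CPM in WT. Its groups did not overlap, with a log2 fold change of 0.96 ± 0.28 (SE, adjusted p = 0.0164, edgeR), but Mmp16 no longer passed without WT replicate 1 (0.81, adjusted p = 0.0523), under DESeq2 (adjusted p = 0.0707) or with the adjustment for GC content and length (0.67, adjusted p = 0.075). Mmp11 (stromelysin-3) and Mmp28 (epilysin) did not pass the test, at log2 fold changes of 0.17 and 0.21.

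Between genes, levels can be set side by side only per length, here as CPM per kilobase of exon. Family sums include the members that did not pass the low-count filter. On that scale Mmp2 supplied 69.3% to 70.3% of the summed level of the MMP genes in knockout libraries, against 78.7% and 74.4% in WT libraries. Timp2 averaged 232 per kilobase in KO clone 1, 240 in KO clone 2 and 150 in WT (n = 2 each). Mmp2 averaged 87.9 per kilobase in KO clone 1, 77.3 in KO clone 2 and 113 in WT. The level of Timp2 divided by that of Mmp2 was 2.67 and 2.61 in KO clone 1, 3.09 and 3.12 in KO clone 2, and 1.35 and 1.30 in WT. All knockout values of this ratio of RNA levels lay above both WT values. That follows from Timp2 being higher and Mmp2 lower in every knockout library, so it is no separate result. For the summed levels, Timp over Mmp was 2.89 and 2.88 in KO clone 1, 3.32 and 3.37 in KO clone 2, and 2.01 and 1.77 in WT. Timp2 supplied 52.95% to 65.5% of the Timp sum, so with Mmp2 it made up most of both sums. The lack of overlap here is therefore mostly that of the same 2 genes. Summed Adam levels ran from 55.9 to 64.4 per kilobase in knockout libraries and were 46.6 and 55.5 in WT libraries, and summed Adamts levels overlapped, at 27.2 to 34.4 in knockout libraries against 32.4 and 33.4 in WT libraries.

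**Figure D3:**
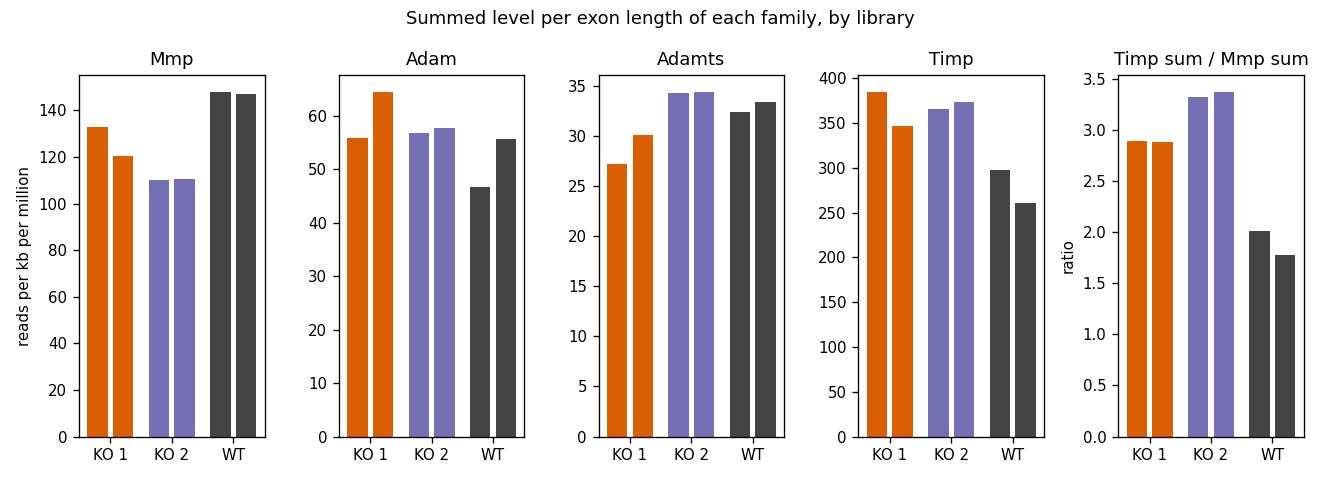
Summed level of all member genes of each family, also those that did not pass the low-count filter, in each library (vertical axis, CPM per kilobase of exon), for KO clone 1, KO clone 2 and WT from left to right. The Timp sum is 346.9 to 384.5 in knockout libraries and 297.1 and 260.8 in WT libraries, and the Mmp sum is 110 to 133 in knockout libraries and 147.9 and 147 in WT libraries.

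Of the main shedding enzymes of the ADAM family, Adam17 was called higher in both clones, and Adam10 only in the mean of the clones. Adam17, which releases TNF and several EGF receptor ligands, had 47.9 and 57.3 CPM in KO clone 1, 56.4 and 46.2 CPM in KO clone 2, and 24.2 and 38.0 CPM in WT. The groups did not overlap and the log2 fold change was 0.69 ± 0.17 (SE, adjusted p = 0.00681, edgeR), with 0.45 without WT replicate 1 and 1.11 without WT replicate 2. Adam10, which cuts Notch receptors and cadherins, had 33.7 and 51.6 CPM in KO clone 1, 49.0 and 42.6 CPM in KO clone 2, and 25.3 and 34.7 CPM in WT. KO clone 1 replicate 1 lay below WT replicate 2, so the groups overlapped, and the log2 fold change of 0.52 ± 0.18 (SE) had an adjusted p of 0.0402 in edgeR. Taken alone, neither KO clone 1 (adjusted p = 0.0977) nor KO clone 2 (adjusted p = 0.0516, edgeR) passed for Adam10. The Adam10 call ended without WT replicate 1 (0.34, adjusted p = 0.0989), without KO clone 1 replicate 2 (0.34, adjusted p = 0.121), without KO clone 2 replicate 1 (0.47, adjusted p = 0.0977) and with the adjustment for GC content and length (0.18, adjusted p = 0.313), and without WT replicate 2 the log2 fold change was 0.81.

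Libraries of 1 group differed with the GC content of transcripts. Over 13114 genes, the log2 ratio of replicate 2 to replicate 1 correlated with transcript GC content at r = -0.44 in KO clone 1, 0.12 in KO clone 2 and -0.32 in WT, a description across genes that are not independent. Transcripts of Adam10 have 42.1% GC, those of Adam17 45.1% and those of Timp3 46.8%, against a median of 49.6% over the genes tested. WT replicate 2 exceeded WT replicate 1 by 1.37-fold for Adam10, 1.57-fold for Adam17 and 1.81-fold for Timp3. Members richer in GC went both ways. WT replicate 2 over replicate 1 was 1.43 for Mmp14 (54.3% GC) and 1.94 for Adamts4 (55.2% GC, 14 counts in WT replicate 1). It was below 1 for others, such as 0.706 for Adamts14 (59.5% GC), 0.824 for Adamts7 (57.8% GC) and 0.906 for Timp2 (53.7% GC). After the joint adjustment for GC content and length, Adam17 was at a log2 fold change of 0.51 (adjusted p = 0.00617) and Timp3 at 1.01 (adjusted p = 2.15e-04, edgeR). Adamts5 (43.7% GC) went from 1.47 to 1.14 and Adam22 (44.8% GC) from 0.89 to 0.63. Adamts6 (43.0% GC) went the other way in size, from -0.87 to -1.19. The parts of GC content and of length were not tested apart.

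The ADAMs that lack a working active site and act as surface receptors did not move alike. Adam22, a binding partner of the secreted LGI proteins, had 33.2 and 42.0 CPM in KO clone 1, 29.5 and 26.1 CPM in KO clone 2, and 14.9 and 19.0 CPM in WT. Every knockout library was above both WT libraries, by a log2 fold change of 0.89 ± 0.16 (SE, adjusted p = 0.00104, edgeR). Adam23, a relative that also binds LGI proteins, had log2 fold change 0.06 (adjusted p = 0.746), and Adam11 -0.60 (adjusted p = 0.237, edgeR). Neither passed the test. The active ADAMs Adam8, Adam9, Adam15 and Adam19 also did not pass, with log2 fold changes of 0.46, 0.31, 0.21 and -0.28. Adam8, which had 3.13 and 2.20 CPM in KO clone 1, 1.05 and 0.913 CPM in KO clone 2, and 0 and 1.62 CPM in WT, had KO clone 2 within the span of the WT libraries. Without WT replicate 2, Adam9 passed at a log2 fold change of 0.73 (adjusted p = 0.00165), and with the adjustment for GC content and length Adam15 passed at 0.47 (adjusted p = 0.00263, edgeR).

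In the ADAMTS family, Adamts5 and Adamts12 were higher and Adamts6, Adamts7 and Adamts10 lower. Adamts5, the main aggrecan-cutting enzyme in mouse cartilage, stood at 41.1 and 56.2 CPM in KO clone 1, 52.5 and 54.3 CPM in KO clone 2, and 16.0 and 19.8 CPM in WT. The lowest knockout library exceeded the highest WT library by a wide margin, and the log2 fold change was 1.47 ± 0.17 (SE, adjusted p = 1.67e-05, edgeR). Its neighbour on chromosome 16, Adamts1 (GRCm38, chr16:85793827-85803113, next to Adamts5 at chr16:85856173-85901828, both on the minus strand), another proteoglycan-cutting enzyme, had a log2 fold change of 0.25 (adjusted p = 0.19, edgeR). Adamts4, the third of these enzymes, was at -0.22 (adjusted p = 0.492, edgeR), and Adamts8, Adamts9 and Adamts15 had no count.

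Adamts7 and Adamts12, a pair that both cut cartilage oligomeric matrix protein, moved in opposite directions in the mean of the clones. Adamts7 had 10.8 and 10.2 CPM in KO clone 1, 12.0 and 13.6 CPM in KO clone 2, and 43.5 and 35.8 CPM in WT. No library of either clone came near WT, and the log2 fold change was -1.75 ± 0.14 (SE, adjusted p = 6.57e-07, edgeR). Adamts12 had 28.8 and 36.3 CPM in KO clone 1, 23.0 and 20.5 CPM in KO clone 2, and 15.5 and 17.1 CPM in WT. Its groups did not overlap, with a log2 fold change of 0.69 ± 0.16 (SE, adjusted p = 0.00426, edgeR) in the mean of the clones. Adamts12 was called in KO clone 1 (0.98, adjusted p = 9.05e-04) and not in KO clone 2 (0.40, adjusted p = 0.107, edgeR).

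Adamts6 and Adamts10, a pair linked to fibrillin microfibrils, were both lower in the mean of the clones. Taken alone, Adamts6 was called in KO clone 2 (adjusted p = 9.64e-04) and not in KO clone 1 (adjusted p = 0.0922, edgeR). Adamts6 had 9.45 and 10.1 CPM in KO clone 1, 5.87 and 5.48 CPM in KO clone 2, and 10.3 and 15.6 CPM in WT. Every knockout library lay below WT, KO clone 1 by little, and the log2 fold change of -0.87 ± 0.19 (SE, adjusted p = 0.00265, edgeR) became -0.47 (adjusted p = 0.211) without WT replicate 2. Adamts10 had 11.9 and 12.8 CPM in KO clone 1, 13.6 and 16.2 CPM in KO clone 2, and 21.5 and 21.0 CPM in WT. All knockout libraries were lower, by a log2 fold change of -0.64 ± 0.15 (SE, adjusted p = 0.00454, edgeR), or -0.37 with the adjustment for GC content and length. The procollagen-trimming enzymes Adamts2 and Adamts14 did not pass the test, at -0.24 and -0.07.

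Taken clone by clone, 14 members passed in KO clone 1, 7 higher and 7 lower, where 31.7% of all genes tested passed (15.2% higher and 16.5% lower). In KO clone 2, 14 passed as well, 7 higher and 7 lower, where 27.4% of all genes did (12.9% higher and 14.5% lower). The higher ones in KO clone 1 were Mmp14, Adam17, Adam22, Adamts5, Adamts12, Timp2 and Timp3, and the lower ones Mmp2, Mmp9, Mmp19, Adam12, Adamts2, Adamts7 and Adamts10. In KO clone 2 the higher ones were Mmp16, Adam17, Adam22, Adamts1, Adamts5, Timp2 and Timp3, and the lower ones Mmp2, Mmp9, Mmp19, Adam12, Adamts6, Adamts7 and Adamts10. Both lists rest on the same WT libraries. Mmp2 in KO clone 1 and Adamts10 in KO clone 2 each lost the call under 7 of the alternatives tried. Leaving out a single library took the count in KO clone 1 as low as 9, without its replicate 2, and the count in KO clone 2 as low as 9, without its replicate 1. A gene called in 1 clone and not in the other is not thereby shown to differ between them.

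**Figure D4:**
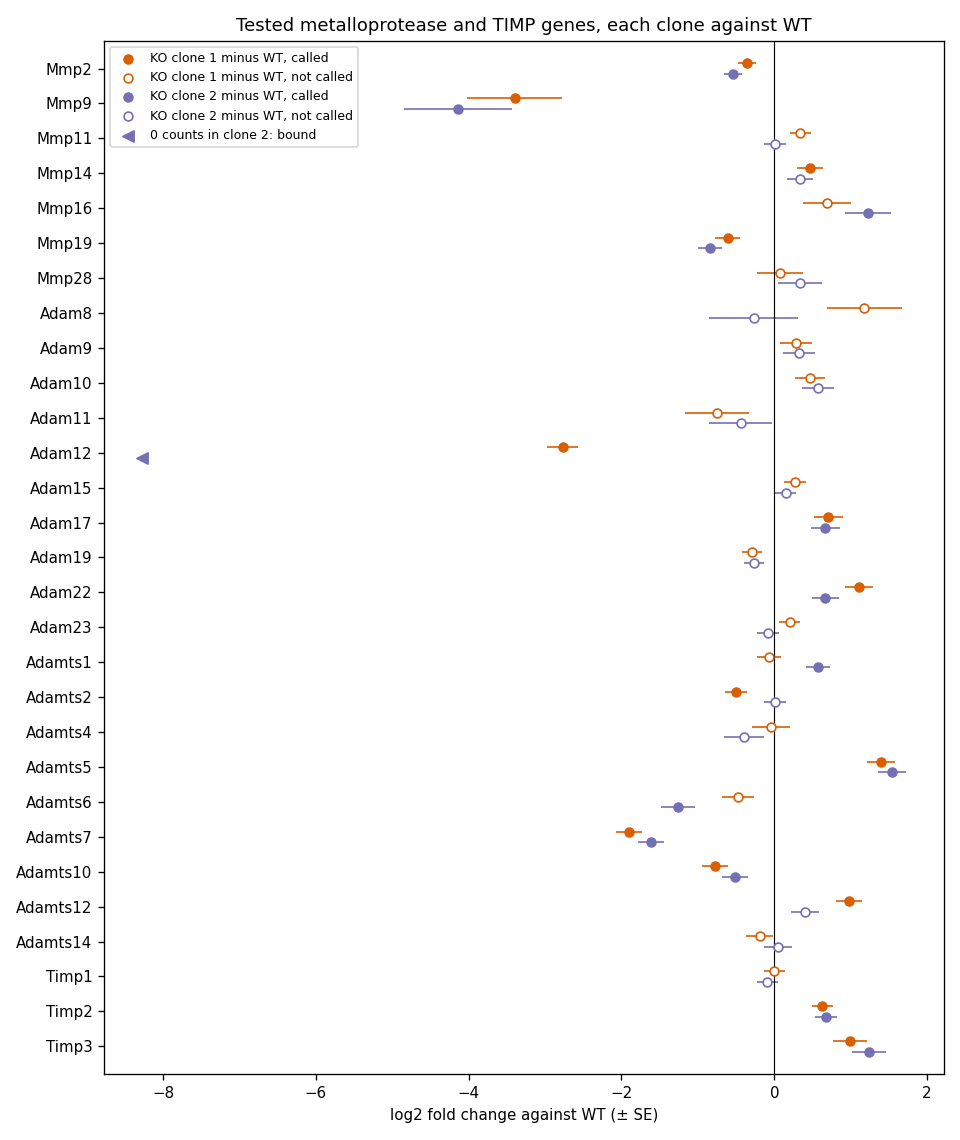
Log2 fold change against WT (horizontal axis, bars are SE) of each of the 29 measured members in KO clone 1 and KO clone 2, with filled points for called genes and a triangle at the bound for Adam12 in KO clone 2. Both clones share the WT libraries, and Adamts5 lies at 1.40 in KO clone 1 and 1.54 in KO clone 2, and Adamts7 at -1.90 in KO clone 1 and -1.61 in KO clone 2.

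Tested directly, KO clone 2 against KO clone 1, 2 members passed, Adamts1 higher and Adam12 lower, where 3.54% of all genes passed (1.18% higher and 2.36% lower). Adamts1 had 63.2 and 54.2 CPM in KO clone 2 against 35.4 and 39.9 CPM in KO clone 1, while WT stood at 34.0 and 43.8 CPM. KO clone 2 was thus the high group, with a log2 fold change of 0.64 ± 0.15 (SE, adjusted p = 0.03, edgeR) over KO clone 1. That difference no longer passed without KO clone 1 replicate 1 (0.54, adjusted p = 0.265), KO clone 1 replicate 2 (0.73, adjusted p = 0.0724), KO clone 2 replicate 1 (0.52, adjusted p = 0.34) or KO clone 2 replicate 2 (0.74, adjusted p = 0.104). The number of members that passed between the clones ran from 1 to 8 when single libraries were left out, with 8 without WT replicate 1 or without WT replicate 2, and 1 without KO clone 1 replicate 2, KO clone 2 replicate 1 or KO clone 2 replicate 2. For Adamts6, at 5.87 and 5.48 CPM in KO clone 2 against 9.45 and 10.1 CPM in KO clone 1, the log2 difference of -0.78 had an adjusted p of 0.0555, and it passed under 5 of the alternatives tried. Adamts12, at 23.0 and 20.5 CPM in KO clone 2 against 28.8 and 36.3 CPM in KO clone 1, had a log2 difference of -0.58 (adjusted p = 0.0658, edgeR) and passed under 6 of them. Adam8, with a log2 difference of -1.45 (adjusted p = 0.0762), passed without a count filter (adjusted p = 8.96e-05) and with the replicate block (adjusted p = 0.00835, edgeR). Adamts2, at 0.51 (adjusted p = 0.0619), passed with the replicate block (adjusted p = 0.0463, edgeR).

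Adam12 was set apart because it lies near the targeted gene. It encodes meltrin alpha, a shedding enzyme known from muscle and fibroblasts, at chr7:133883199-134232146 on the minus strand (GRCm38), 1.46 Mb from Mki67. Adam12 had 4.85 and 3.90 CPM in KO clone 1, no count in either library of KO clone 2, and 32.1 and 28.6 CPM in WT. Over the groups these were 158 counts in KO clone 1, 0 in KO clone 2 and 435 in WT, and a count of 0 over KO clone 2 allows a level of up to 0.0951 CPM. KO clone 1 was lower than WT by a log2 fold change of -2.77 ± 0.20 (SE, adjusted p = 7.36e-07, edgeR). KO clone 2 was at least 310-fold lower than WT and at least 46.5-fold lower than KO clone 1, reading 0 as 3 counts over the group, with adjusted p values of 7.37e-09 and 4.53e-06 (edgeR). The annotation places A130023I24Rik, Gm23631 and Gm19514 over Adam12 on the same strand, so reads there may not count for Adam12.

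Neither Fank1, on the far side of Adam12, nor the coding genes between Adam12 and Mki67 passed as lower than WT. Fank1, 1.7 kb from Adam12, had 2.78 and 2.77 CPM in KO clone 1, 0.679 and 0.522 CPM in KO clone 2, and 0.815 and 0.271 CPM in WT. KO clone 2 overlapped WT, at a log2 fold change of 0.54 (adjusted p = 0.562), and KO clone 1 stood above both, at 2.73 (adjusted p = 7.29e-04, edgeR) or 1.76 without WT replicate 2. On the side towards Mki67, 4 tested genes lie between them, D7Ertd443e, Dock1, Ptpre and 5830432E09Rik. Dock1, a regulator of the actin cytoskeleton, had 54.0 and 64.8 CPM in KO clone 1, 68.3 and 57.3 CPM in KO clone 2, and 52.2 and 68.2 CPM in WT, which overlap. 5830432E09Rik, annotated as an antisense RNA, was lower in KO clone 2 by a log2 fold change of -1.51 (adjusted p = 0.0103, edgeR), and the others did not pass against WT in either clone. Set directly against KO clone 1, KO clone 2 was lower for Fank1 (-2.19, adjusted p = 0.00187) and Ptpre (-0.76, adjusted p = 0.0328, edgeR). The Ptpre value was -0.04 with unstranded counts. D7Ertd443e (-2.19, adjusted p = 0.068), Dock1 (0.08, adjusted p = 0.871) and 5830432E09Rik (-0.61, adjusted p = 0.465, edgeR) did not pass between the clones. Mmp21, 203.1 kb from Adam12, had no count in any library, and Adam8 lies 4.26 Mb beyond Mki67 on the other side.

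Within 5 Mb of Mki67 on either side, 51 genes other than Mki67 and Adam12 were tested. In the mean of the clones 11 were higher and 12 lower, 45.1% of the 51, where 34.8% of all genes tested were called (16.6% higher and 18.2% lower). On the side that holds Adam12, 9 of 29 were higher and 2 lower, with a median log2 fold change of 0.18, and on the other side 2 of 22 were higher and 10 lower, with a median of -0.43. Between the clones, 1 of the 51 (Htra1) was higher and 4 (Fgfr2, Gm35147, Fank1 and Ptpre) were lower in KO clone 2. Among all genes tested, 3.54% were called between the clones (1.18% higher and 2.36% lower). All 5 of these neighbours lay on the side that holds Adam12, and whether the sides differ was not tested. Of the 51, Fuom, which encodes a fucose-metabolising enzyme, was singled out after its values were seen. It had no count in KO clone 1, 0.185 and 0 CPM in KO clone 2, and 7.34 and 5.41 CPM in WT. Fuom passed the low-count filter only through WT, the group in which it was high, so its call as lower is a description. It lies 4.38 Mb from Mki67 on the side away from Adam12, the side that holds Adam8. Other genes in the window went the other way. Gm36431 and Adgra1, with no count in WT, and Gm35147, with 0 and 1 counts in WT, were called higher in both clones. They passed the filter only through the knockout clones, so these calls are a description too. Whether the position of Adam12 next to Mki67 bears on its level in the clones was not tested.

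**Figure D5:**
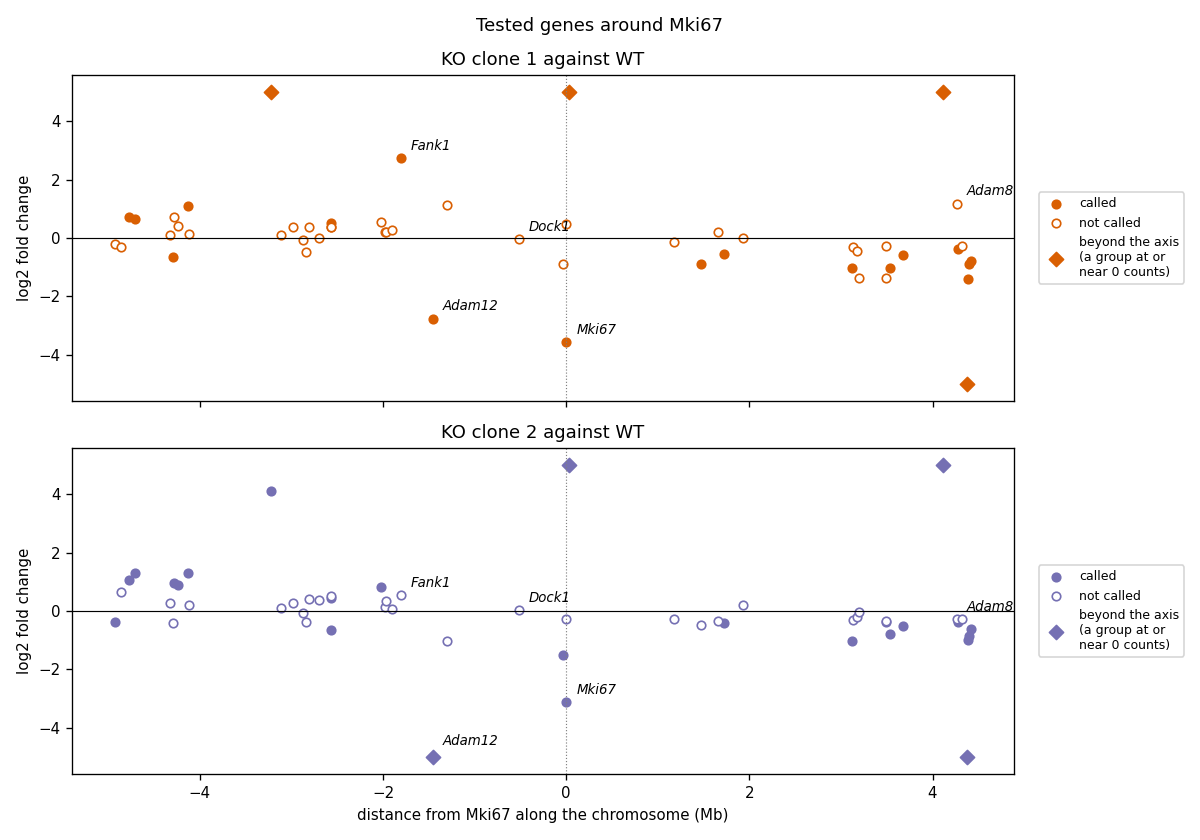
Log2 fold change (vertical axis) of the tested genes around Mki67 on chromosome 7 against their distance from Mki67 (horizontal axis, Mb), for KO clone 1 and KO clone 2 against WT. Negative distances are the side of Adam12; diamonds at the edge mark fitted values beyond the axis, where a group has few or no counts, as for Adam12 in KO clone 2.

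Genes that act with these enzymes also changed in both directions. Of 26 partners of matrix proteases, such as the plasminogen activators, 10 were measured, and 3 were higher and 5 lower in the mean of the clones, with a median log2 fold change of -0.04, where 34.8% of all genes tested were called (16.6% higher and 18.2% lower). Plau, urokinase, had 64.2 and 53.9 CPM in KO clone 1, 101 and 104 CPM in KO clone 2, and 166 and 161 CPM in WT, and fell by 1.07 on the log2 scale (SE 0.11, adjusted p = 6.81e-06, edgeR). Plat, tissue plasminogen activator, was lower by a log2 fold change of -1.12 ± 0.21 (SE, adjusted p = 0.00116, edgeR), or -0.62 without WT replicate 2, and Pappa, which cuts IGF-binding proteins, by -1.59 ± 0.26 (SE, adjusted p = 4.2e-04). Among the higher ones were Htra1, a secreted serine protease, at 0.98 ± 0.18 (SE, adjusted p = 0.00101), and Pcolce, which enhances procollagen trimming by Bmp1, at 0.68 ± 0.12 (SE, adjusted p = 7.9e-04, edgeR).

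Among 13 genes that mature or carry ADAM proteins, 9 were measured, and in the mean of the clones none was higher and 2 were lower. Their median log2 fold change was -0.21, and 34.8% of all genes tested were called (16.6% higher and 18.2% lower). The lower ones were Furin, the convertase that removes pro-domains, at -0.46 ± 0.12 (SE, adjusted p = 0.00766, edgeR), and Frmd8, which binds the iRhom carriers of Adam17, at -0.34 (adjusted p = 0.0335). Neither call was held by every library: without WT replicate 1, Furin was at -0.32 (adjusted p = 0.0646; -0.26 and 0.0845 with the adjustment for GC content and length) and Frmd8 at -0.25 (adjusted p = 0.168), and Frmd8 was also lost without KO clone 1 replicate 2 (-0.31, adjusted p = 0.105), KO clone 2 replicate 1 (-0.32, adjusted p = 0.122) or KO clone 2 replicate 2 (-0.39, adjusted p = 0.063). Of 9 EGF-family ligands that ADAMs shed, 5 were measured, with Hbegf (0.35, adjusted p = 0.0356) and Ereg (0.70, adjusted p = 0.0455, edgeR) higher and Areg lower. Among all genes tested, 34.8% were called (16.6% higher and 18.2% lower). Areg passed the low-count filter only with the WT libraries counted, so its call is a description. Areg had few counts, at 0.152 and 0.126 CPM in KO clone 1, 0.679 and 0.326 CPM in KO clone 2, and 1.09 and 1.35 CPM in WT, and its log2 fold change of -2.22 ± 0.49 (SE, adjusted p = 0.00321, edgeR) no longer passed without WT replicate 2 (-1.98, adjusted p = 0.12). The calls of Hbegf and Ereg each ended under 6 of the alternatives tried, among them leaving out WT replicate 2, which gave adjusted p values of 0.224 and 0.0614.

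The ADAMTS-like genes encode secreted relatives of the ADAMTS enzymes without a protease domain. Of 6, 3 were measured, with Adamtsl1 higher and Adamtsl5 lower in the mean of the clones, where 34.8% of all genes tested were called (16.6% higher and 18.2% lower). Adamtsl1 had 6.87 and 9.68 CPM in KO clone 1, 7.78 and 6.33 CPM in KO clone 2, and 3.80 and 4.24 CPM in WT, with a log2 fold change of 0.89 ± 0.24 (SE, adjusted p = 0.0115, edgeR). Adamtsl5 had 32.1 and 28.1 CPM in KO clone 1, 24.0 and 31.9 CPM in KO clone 2, and 63.0 and 59.6 CPM in WT, with a log2 fold change of -1.08 ± 0.14 (SE, adjusted p = 5.07e-05, edgeR). Neither gene's groups overlapped. Of the 4 hyalectan proteoglycans that Adamts1, Adamts4 and Adamts5 can cut, versican (Vcan) was the only one measured. Its log2 fold change of -0.41 did not pass the test (adjusted p = 0.072, edgeR). Vcan did pass as lower with the GC and length adjustment (-0.78, adjusted p = 9.14e-05) and the replicate block (-0.37, adjusted p = 0.0279, edgeR). It also passed without a count filter (-0.36, adjusted p = 0.0424, edgeR), and was at -0.63 without WT replicate 1. It is thus not shown to be unchanged.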

How the data were processed

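RNA was measured by stranded RNA-seq in 6 libraries, 2 for each of KO clone 1, KO clone 2 and WT. The authors deposited read counts per gene for each library, as STAR writes them, and per the submitters' processing notes the tools were FastQC and STAR 2.6.0c with the GRCm38 build; their annotation release is not stated. The deposited counts come in 3 strand settings, and the column of the reverse-stranded setting (column 4) was used. Entries without a gene took up 46.6% to 50.5% of reads and stayed out of all totals, among them reads that map to several places at 28.3% to 30.3%. Reads of near-identical genes can be lost that way.

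Symbols, classes and lengths were taken from GENCODE M21, which matched 54079 of 54146 gene IDs. Genes were kept by filterByExpr at a minimum count of 10, and 13120 were tested in edgeR 4.0.16 (R 4.3.3) with TMM factors (0.951 to 1.03), 1 coefficient per group over all 6 libraries, 3 residual degrees of freedom, and quasi-likelihood tests adjusted by Benjamini-Hochberg over all genes, called below 0.05. All tests are two-sided. CPM used the scaled totals of genes kept by the filter. SE is the log2 fold change divided by the square root of its F. Intervals are exact binomial ones at 95%, and they and the floor of 3 counts cover counting error only.

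Values per library were to be given for Adam12, the Timp genes and called members with an absolute log2 fold change of at least 1, and for up to 3 genes each way per list, of which 1 is not reported here; those of other members were added after their values were seen. The members and lists were chosen with earlier results of these data known. Alternatives were DESeq2 1.42.0 as the test or for size factors, other count filters, unstranded counts, a replicate block, each library left out and, chosen after seeing the data, an adjustment for GC content and length.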

Additional observations from a re-analysis of the deposited data

Results flagged for a closer look

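Adam12 differed between the clones by a direct test, with no count in either library of KO clone 2 against 4.85 and 3.90 CPM in KO clone 1 (adjusted p = 4.53e-06, edgeR's quasi-likelihood test). Adamts1 also differed between them, at 63.2 and 54.2 CPM in KO clone 2 against 35.4 and 39.9 CPM in KO clone 1 (adjusted p = 0.03, edgeR), with the limits given with its values. Mmp24, a membrane-type MMP that did not pass the filter with 21 counts over all libraries, had signal on the opposite strand, in counts outside the strand-aware comparisons: there were 23.2 to 28.7 CPM in knockout libraries against 20.0 to 22.3 CPM in WT libraries. The 2 ranges do not overlap, and this difference was not tested. BC029722 is annotated on that strand over Mmp24, and by its own counts it had 48.7 to 58.2 CPM in knockout libraries against 43.2 and 39.2 CPM in WT libraries, so reads of BC029722 and reads opposite to Mmp24 cannot be told apart here.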

How the results depend on the processing

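The number of members called in the mean of the clones stayed within 13 to 17 over all alternatives, against 16, and 12 of the 16 were called under each alternative that gave them a value; the exceptions were Adam10, Mmp14, Mmp16 and Adamts6. Mmp14 (adjusted p = 0.0525) and Mmp16 (adjusted p = 0.0707) missed the threshold under DESeq2, and Mmp16 under the adjustment for GC content and length (adjusted p = 0.075). Calls gained in the mean of the clones were Mmp11 under the GC and length adjustment (0.38, adjusted p = 0.0111) and Adamts1 without WT replicate 2 (0.48, adjusted p = 0.0367), beside Adam8, Adam9 and Adam15. With single libraries left out, the counts ran from 13 to 17 in the mean of the clones, from 9 to 14 in KO clone 1, from 9 to 16 in KO clone 2 and from 1 to 8 between the clones. Between the clones, 2 members were called, against 5 without a count filter, 6 with the replicate block and 6 with the GC and length adjustment. The replicate block gave 16, 16 and 15 members in the mean, KO clone 1 and KO clone 2, and the numbers were not taken to pair the libraries, because deviations of replicate 1 correlated at 0.39 for KO clone 1 and WT, -0.18 for KO clone 2 and WT and -0.17 for the 2 clones. For Adam8 in KO clone 2 against WT, leaving out single libraries gave log2 fold changes of -0.72 to 6.82 in place of -0.27; the last is without WT replicate 2, when the remaining WT library holds 0 counts, and is no fold. Mmp9 has no value at a minimum count of 30. Of 1496 values of members over all alternatives, 1345 kept their side of the threshold and their sign, 52 changed sign without being called, 49 lost and 49 gained a call, and the value of Adam8 without WT replicate 2 reversed. WT, with 2 libraries of which 1 is the shallowest, limits every comparison against it.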
